A study of Arabidopsis thaliana with 44 samples.

Results

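The genes described here are 10 heat shock genes of Arabidopsis thaliana: the heat shock transcription factor (HSF) genes HSFA2 (AT2G26150), HSFA3 (AT5G03720) and HSFC1 (AT3G24520), and the heat shock protein (HSP) genes HSP101 (AT1G74310), HSP90.1 (AT5G52640), HSP70 (AT3G12580), HSP17.4 (AT3G46230), HSP17.6A (AT5G12030), HSP18.2 (AT5G59720) and HSP21 (AT4G27670). They were chosen by name, and all 10 were found among the 33557 genes of the expression table. RNA was sequenced from the entire aerial part of plants labelled as 23 days old in every group. The study compared a Swedish ecotype (SW) and an Italian ecotype (IT), and asked how the CBF transcription factors CBF1, CBF2 and CBF3 contribute to their cold-regulated expression. There were 44 samples, 2 in each of 22 groups of 8 lines, but the table holds 1 pooled value per group, so no value here has a replicate error and no p-value could be computed.

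The SW-background lines were SW, sw-cbf2, sw-cbf23 and sw-cbf123. In sw-cbf2 and sw-cbf123 the named CBF genes were disrupted by genome editing. The labels give no more than the name for sw-cbf23, and the study's allele chart does not show it. The IT-background lines were IT, it8 and it33. IT carries a natural deletion that disables CBF2, which the lines made from it share. The line 35s was set against IT, but the labels do not give its ecotype. The methods describe CBF overexpressors made in another accession, Ws-2, so 35s over IT may include a difference in ecotype. The line it8 was taken as the it:cbf123 triple mutant from the study's allele chart. The labels do not say what it33 and 35s carry, but the methods list CBF2-overexpressing plants, and CBF2 stood at 540 FPKM in 35s against 0.0295 to 0.451 FPKM in the other 7 warm groups. All 8 lines were sampled in the warm (22°C), and all but 35s also after 24 h and 2 weeks at 4°C. All plants had a 12 h photoperiod and were collected 4 h after lights on. Cold plants received about 35 μmol m-2 s-1 of light against 100 to 120 in the warm, so effects of cold and of dimmer light cannot be told apart, nor can the length of cold and plant development at 2 weeks. Each edited line stems from plants with 1 set of alleles, and reads of both ecotypes were mapped to the reference ecotype, so in SW against IT a difference in transcript and a difference in how well reads mapped cannot be told apart.

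HSFs are transcription factors that bind heat shock elements, arrays of alternating GAA and TTC units, upstream of chaperone genes. Chaperones keep damaged or newly made proteins soluble: small HSPs hold unfolded proteins, HSP70 and HSP90 refold or mature them, and HSP101 pulls proteins out of aggregates. In leaves these genes are best known from heat stress, when HSFA2 prolongs the response, and several of them also answer to strong light, oxidative stress and cold. HSFC1 is known as a transcription factor induced early in the cold in parallel with the CBF genes.

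Values are FPKM, read fragments scaled by transcript length and by the number of fragments mapped in the library. A ratio is log2 of (FPKM + 0.5) in one group over (FPKM + 0.5) in the other, which understates the change of low genes. A gene rose or fell where this ratio reached 1 in size (2-fold) and 1 of the 2 groups reached 1 FPKM. The sum of FPKM per group was 880986 to 1101341, and 17705 to 18118 genes reached 1 FPKM. The leaf markers RCA and RBCS3B were at 802 to 5715 and 218 to 6880 FPKM, the 2 flower markers reached at most 0.642 FPKM, the 4 seed markers at most 0.557, and 3 of 4 root markers at most 0.265, with RCI3 at 0.259 to 7.75. An exact 0 in the table may be a failed estimate, since the leaf gene CAB1 was listed at 0 in 7 groups and RBCS1A in 1, and members at 0 are given as listed at 0. In whole aerial parts, fewer cells of a type and less RNA per cell cannot be told apart.

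The 250 bases before the start of the RefSeq gene model (TAIR10.1 build) were read for the 8 members whose model is not marked partial. They were searched for GAANNTTC and TTCNNGAA, each of which reads the same on both strands, with overlaps between them allowed. At least 1 of these was found in 4 of the 8 members (HSFA2, HSP17.4, HSP17.6A and HSP21) and in 15.6% of 20983 genes searched alike. The 3-unit form GAANNTTCNNGAA or TTCNNGAANNTTC was found in HSFA2 and HSP17.4 and in 0.367% of all genes. The sequences are those of the reference ecotype, so they do not show whether SW and IT differ in a motif. Bases outside the 250 were not searched, so a window without a motif does not show that a gene lacks heat shock elements. Any part of the motifs in the differences between backgrounds was not tested. The windows are shown for HSFA2, whose 24 h ratios had opposite signs in the 2 backgrounds, for HSP17.6A and HSP18.2, which were higher in IT and in SW lines respectively in the warm and at 24 h, and for HSP17.4, which has 2 of the 3-unit arrays and stayed below 1 FPKM in every group. Capitals mark the bases covered by either motif, 5′ to 3′ on the strand of the gene.
HSFA2, chr2:11135374-11135623, plus strand: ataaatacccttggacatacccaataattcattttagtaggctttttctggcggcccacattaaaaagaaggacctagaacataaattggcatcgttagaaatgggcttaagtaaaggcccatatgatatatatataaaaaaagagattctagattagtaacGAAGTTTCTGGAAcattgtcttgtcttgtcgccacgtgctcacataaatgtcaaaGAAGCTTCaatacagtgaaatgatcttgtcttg
HSP17.6A, chr5:3884839-3885088, minus strand: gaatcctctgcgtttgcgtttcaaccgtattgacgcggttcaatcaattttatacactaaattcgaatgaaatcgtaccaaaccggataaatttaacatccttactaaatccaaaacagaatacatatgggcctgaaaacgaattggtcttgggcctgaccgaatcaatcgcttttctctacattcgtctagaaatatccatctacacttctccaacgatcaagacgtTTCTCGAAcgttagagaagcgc
HSP18.2, chr5:24062073-24062322, plus strand: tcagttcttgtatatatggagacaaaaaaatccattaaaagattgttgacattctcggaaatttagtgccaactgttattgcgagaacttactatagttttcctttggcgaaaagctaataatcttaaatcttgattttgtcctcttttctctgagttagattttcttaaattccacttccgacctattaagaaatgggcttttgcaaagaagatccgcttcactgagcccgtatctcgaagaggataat
HSP17.4, chr3:16984868-16985117, minus strand: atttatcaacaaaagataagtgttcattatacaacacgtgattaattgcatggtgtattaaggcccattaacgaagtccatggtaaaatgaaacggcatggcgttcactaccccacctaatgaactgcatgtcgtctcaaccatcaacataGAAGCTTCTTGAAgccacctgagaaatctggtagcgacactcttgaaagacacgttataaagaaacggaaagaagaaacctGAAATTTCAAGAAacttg

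HSFA2 encodes the factor that maintains the heat shock response. It was low in the SW background after cold and high in the IT background after 24 h. In SW it went from 2.56 FPKM in the warm to 0.465 after 24 h and 0.395 after 2 weeks. In sw-cbf2 the 3 values were 1.91, 0.505 and 0.392 FPKM, in sw-cbf23 2.497, 0.581 and 0.523, and in sw-cbf123 2.63, 0.659 and 0.422. The 4 SW-background lines followed the same course and their warm and 24 h values did not overlap. In IT the level was 5.48 FPKM in the warm, 7.95 after 24 h and 0.237 after 2 weeks. In it8 it was 2.31, 19.6 and 0.244 FPKM, in it33 it was 2.42, 12.3 and 0.245, and 35s was at 2.70 in the warm. HSFA2 thus fell after 24 h in all 4 SW-background lines, with log2 ratios of -1.66 to -1.26, and rose in it8 (2.84) and it33 (2.14), while IT had a ratio of 0.50 and was not called. Of 20138 genes at 1 FPKM or more in any of these groups, 0.0795% fell in all 4 SW-background lines and had ratios above 0 in all 3 IT-background lines. This pattern has the shape of the HSFA2 values themselves, so its share does not measure how unusual the gene is. By sign alone, 2.24% of these genes were below 0 in all 4 SW-background lines and above 0 in all 3 IT-background lines. The reverse signs were found in 615 of the 20138. After 2 weeks HSFA2 was below its warm level in 7 of 7 lines (-3.02 to -1.43).

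HSFA3, a factor that DREB2A activates in heat and drought, stayed near 1 FPKM in most groups. Its warm values were 0.908 to 1.61 FPKM over the 8 lines. After 24 h it was at 0.991 to 1.47 FPKM in the 4 SW-background lines, 1.29 in IT, 2.72 in it8 and 2.44 in it33. Only the ratio of it8 (1.19) reached 2-fold, with it33 at 0.85. After 2 weeks all 7 lines were at 0.390 to 0.910 FPKM, with ratios of -0.88 to -0.26, none of which reached 2-fold.

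HSFC1, the member of class C of the HSFs, peaked at 24 h in all 7 lines. In SW it was at 0.281 FPKM in the warm, 0.952 after 24 h and 0.0335 after 2 weeks. In sw-cbf2 the 3 values were 0.275, 1.79 and 0.0753 FPKM, in sw-cbf23 0.176, 1.82 and 0.126, and in sw-cbf123 0.350, 1.28 and 0.105. The SW-background lines were therefore lowest after 2 weeks. In IT the levels were 1.03, 2.03 and 0.692 FPKM, in it8 0.763, 2.30 and 1.01, and in it33 0.887, 2.36 and 0.708. The IT-background lines were above all SW-background lines under each of the 3 treatments. Taken 1 treatment at a time, so were 30.8% of 19495 genes in the warm, 5204 of 19395 at 24 h and 5455 of 19416 at 2 weeks. The 24 h ratio was above 0 in 7 of 7 lines (0.73 to 1.78) and reached 2-fold in 5, with SW (0.89) and IT (0.73) below it. In SW neither group reached 1 FPKM, so HSFC1 could not be called there. Without the added 0.5 FPKM, its 24 h level was 3.38 times the warm level in SW and 1.98 times in IT. In 35s the warm level was 2.201 FPKM, within the range of the IT-background lines after 24 h of cold.

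**Figure D1:**
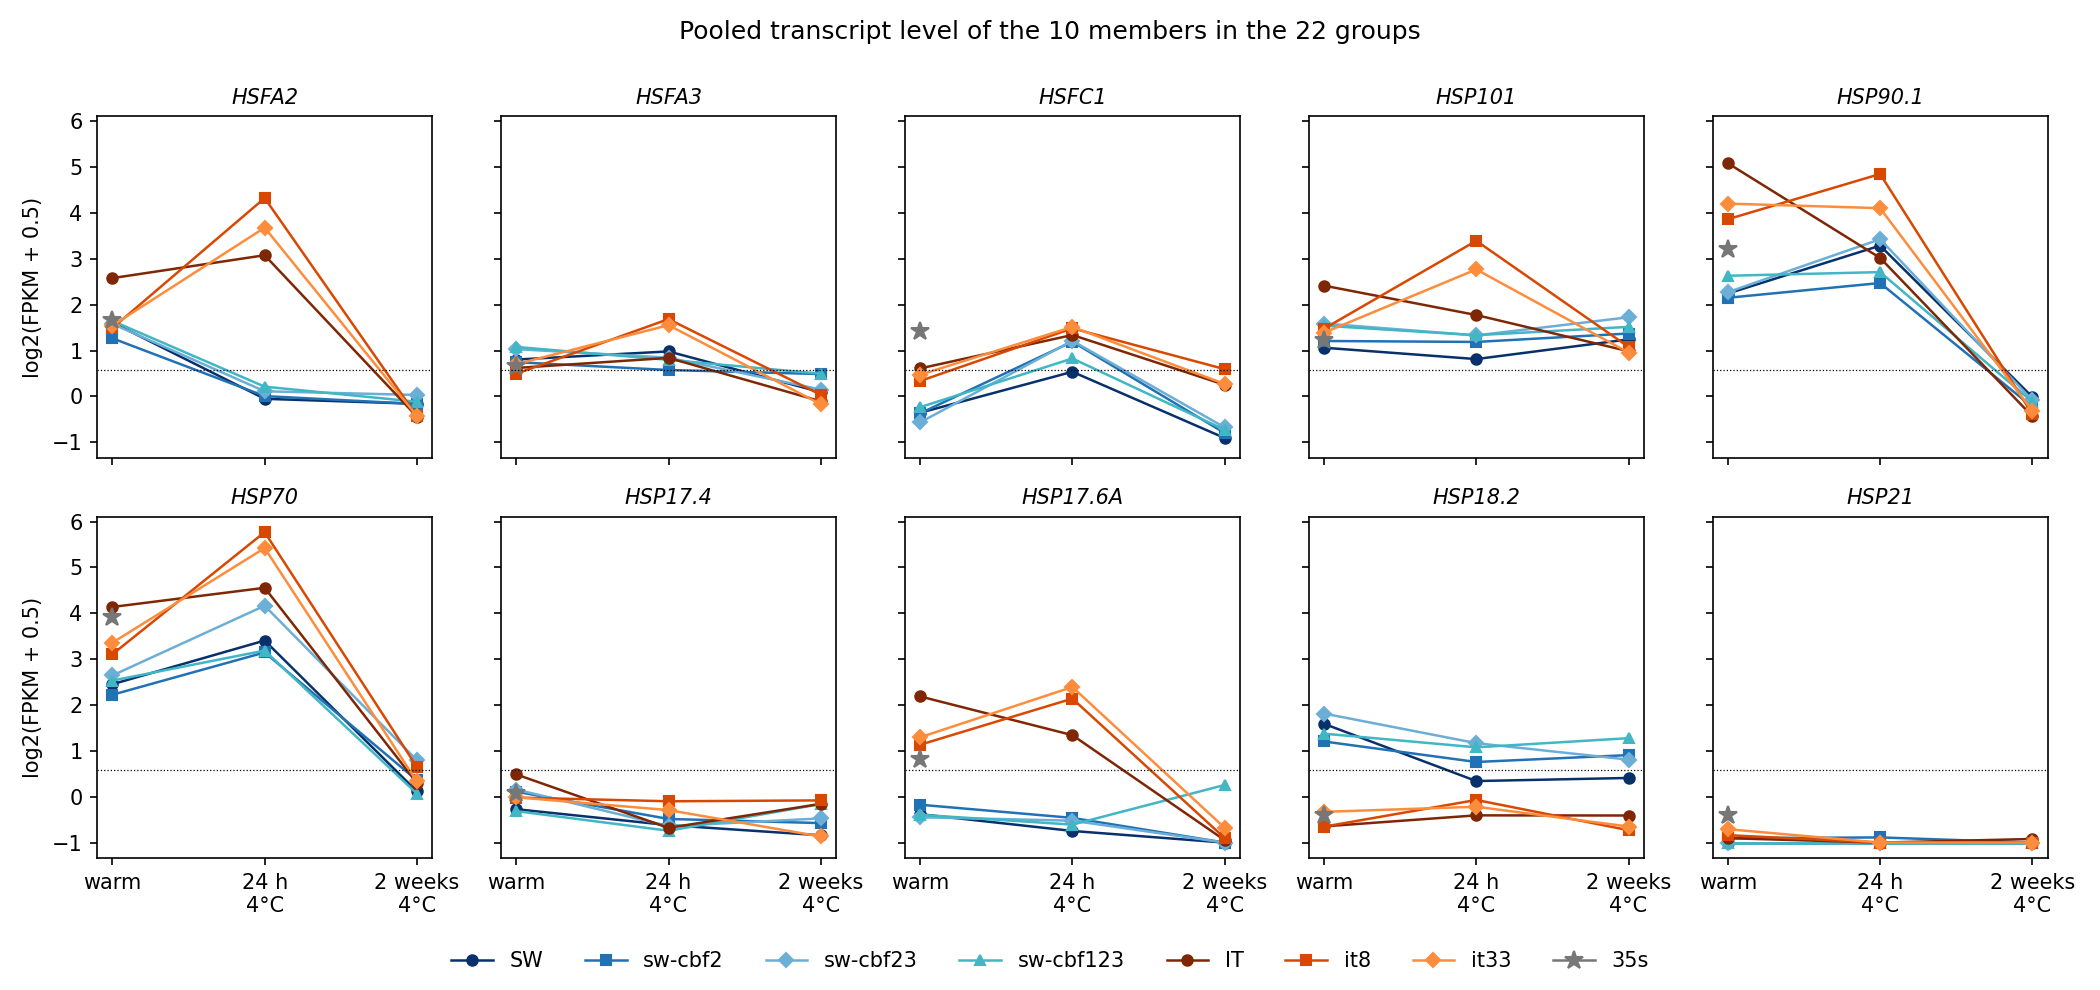
Level of each of the 10 genes as log2(FPKM + 0.5) in the warm and after 24 h and 2 weeks at 4°C, with 1 pooled value per point, blue tones for the SW background, brown and orange for the IT background, and a grey star for 35s. The dotted line marks 1 FPKM. HSFA2, HSP90.1 and HSP70 ended below their warm level in 7 of 7 lines, and in the warm and at 24 h HSP17.6A was higher and HSP18.2 lower in IT, it8 and it33 than in the 4 SW-background lines, while at 2 weeks HSP17.6A was highest in sw-cbf123, at 0.694 FPKM.

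HSP70 and HSP90.1, the stress-inducible cytosolic forms of these chaperones, had the highest levels of the 10 genes and were low in every line after 2 weeks. HSP70 in SW was at 4.98 FPKM in the warm, 10.104 after 24 h and 0.583 after 2 weeks. In sw-cbf123 it was at 5.29, 8.61 and 0.548 FPKM, and sw-cbf2 and sw-cbf23 reached 8.36 and 17.44 FPKM at 24 h. In IT it was at 17.1, 23.0 and 0.734 FPKM. In it8 it was at 8.12, 54.1 and 1.07 FPKM, and in it33 at 9.76, 42.4 and 0.759. The 24 h level lay above the warm level in 7 of 7 lines, by log2 ratios of 0.42 in IT to 2.66 in it8, and HSP70 rose in sw-cbf23, it8 and it33. After 2 weeks it fell in 7 of 7 lines (-3.84 to -1.85).

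HSP90.1 in SW was at 4.24 FPKM in the warm, 9.27 after 24 h and 0.491 after 2 weeks. In sw-cbf2 the 3 values were 3.94, 5.05 and 0.353 FPKM, in sw-cbf23 4.34, 10.3 and 0.443, and in sw-cbf123 5.70, 6.05 and 0.421. It rose at 24 h in SW (1.04) and sw-cbf23 (1.16). In IT it was at 33.5, 7.62 and 0.240 FPKM, in it8 at 14.1, 28.4 and 0.266, and in it33 at 17.9, 16.7 and 0.305. The 24 h response thus differed within the IT background: HSP90.1 fell in IT (-2.06), was just under the threshold in it8 (0.99) and had a ratio of -0.10 in it33. After 2 weeks it fell in 7 of 7 lines, from -2.75 to -2.26 in the SW background and from -5.52 to -4.25 in the IT background. Both backgrounds ended at 0.240 to 0.491 FPKM, and the IT-background lines started higher in the warm.

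HSP101, the disaggregase needed for acquired heat tolerance, was above 1 FPKM in all 22 groups. In the 4 SW-background lines it ranged from 1.26 FPKM in SW at 24 h to 2.81 in sw-cbf23 at 2 weeks, and none of their cold ratios exceeded 0.26 in size. In IT it was at 4.84 FPKM in the warm, 2.92 after 24 h and 1.48 after 2 weeks. In it8 it was at 2.28, 10.02 and 1.61 FPKM and in it33 at 2.12, 6.32 and 1.44. It rose at 24 h in it8 (1.92) and it33 (1.38), and fell at 2 weeks in IT (-1.43).

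Of the small HSPs, HSP17.6A and HSP18.2, of cytosolic classes II and I, had opposite distributions over the backgrounds in the warm and at 24 h. HSP17.6A was at 4.06 FPKM in warm IT, 1.70 in it8, 1.96 in it33 and 1.27 in 35s, and at 0.233 to 0.386 in the 4 warm SW-background lines. At 24 h it was at 2.04 FPKM in IT, 3.91 in it8 and 4.75 in it33, against 0.0962 to 0.226 in the SW background. At 2 weeks it was at 0.0189 to 0.125 FPKM in the IT background and listed at 0 in SW, sw-cbf2 and sw-cbf23, with 0.694 in sw-cbf123. The sw-cbf123 group at 2 weeks also had the highest values of the 22 groups for 3 of the 4 seed markers (CRA1 0.465, CRB 0.557 and SESA1 0.268 FPKM), and it is the group with RBCS1A listed at 0. Their part in the HSP17.6A value was not tested. The neighbouring HSP17.6II, 845 bases away on chromosome 5, has a coding sequence 86.1% identical to that of HSP17.6A, so reads may have been split between them. HSP17.6II followed it at 24 h, with 3.11 FPKM in IT and 8.45 in it8, and in the warm, with 3.81 in IT and 0.0992 in SW.

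HSP18.2 was at 2.51 FPKM in warm SW, 1.81 in sw-cbf2, 3.02 in sw-cbf23 and 2.095 in sw-cbf123. It was at 0.136 to 0.296 in warm IT, it8, it33 and 35s. At 24 h it was at 0.768 to 1.75 FPKM in the SW background and 0.255 to 0.453 in the IT background, and at 2 weeks at 0.828 to 1.92 and 0.103 to 0.253. The 2 backgrounds did not overlap under any treatment. Such a separation was common, as 32.3% of 19495 genes at 1 FPKM or more in the warm had all 3 IT-background lines below all 4 SW-background lines, and 30.8% had them above. At 24 h 6258 of 19395 genes had them below, and at 2 weeks 6232 of 19416. HSP18.2 fell in SW at 24 h (-1.25) and at 2 weeks (-1.18), and in sw-cbf23 at 2 weeks, at the threshold. HSP17.4, another cytosolic class I protein, ranged from 0.0483 to 0.901 FPKM. HSP21, the chloroplast small HSP, was listed at 0 in 15 of 22 groups and reached 0.263 FPKM in 35s. Neither could be called in any comparison.

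**Figure D2:**
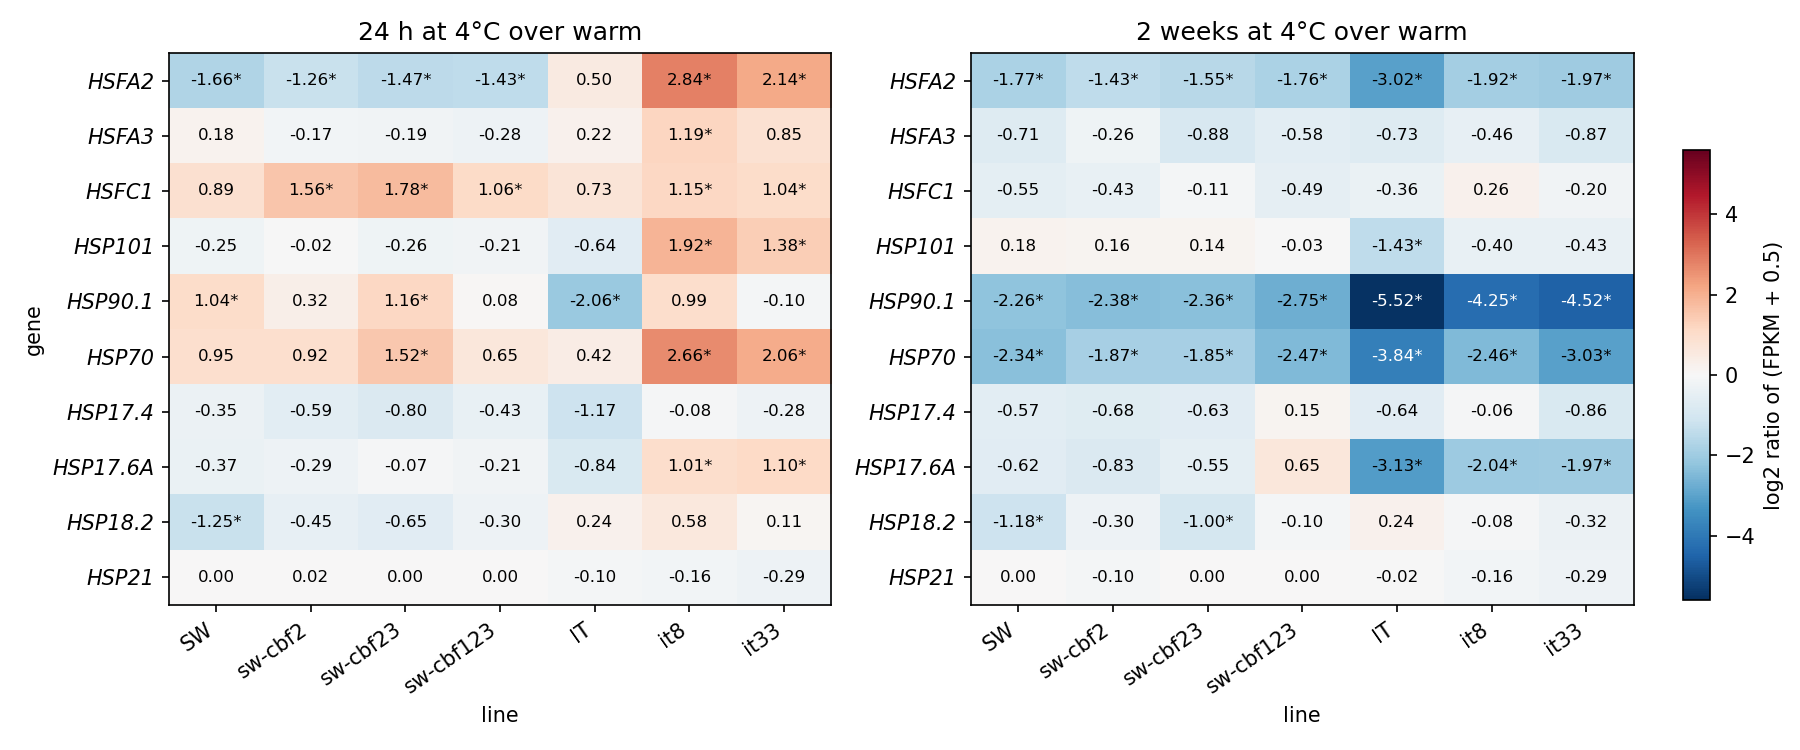
Log2 ratio of (FPKM + 0.5) for each gene (rows) and line (columns), after 24 h over warm on the left and after 2 weeks over warm on the right, with an asterisk where the ratio reached 2-fold and 1 group reached 1 FPKM. At 24 h the row of HSFA2 runs from -1.66 in SW to 2.84 in it8, and at 2 weeks the rows of HSFA2, HSP90.1 and HSP70 carry an asterisk in all 7 lines.

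After 24 h more of the members rose in it8 and it33 than in SW or IT. Of the 10 members, 6 reached 1 FPKM in either SW group and could be called, and 7 did in each of sw-cbf123, IT, it8 and it33. In SW 1 of the 6 rose, against 14.6% of all genes that could be called, and 2 fell, against 14.7%. In sw-cbf123 1 rose (12.1% of all genes) and 1 fell (11.5%). In IT 0 rose (9.21%) and 1 fell (10.9%). In it8 6 rose, against 11.4%, and 0 fell (10.7%), and in it33 5 rose (11.4%) and 0 fell (11.3%). The median ratio over the 10 genes was -0.12 in SW, 0.06 in IT, 1.08 in it8 and 0.95 in it33, and over all genes it was 0.00 in each. With 6 or 7 members that could be called, counts of 1 or 2 cannot be set apart from these shares. The IT count rests on the warm IT value, which is described further on.

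After 2 weeks no member rose in any of the 7 lines, with 7 that could be called in IT and 6 in each other line. Of all genes 9.39% rose in SW, and 9.95%, 9.08% and 9.22% in its mutants sw-cbf2, sw-cbf23 and sw-cbf123. The share that rose was 7.89% in IT, 8.08% in it8 and 7.56% in it33. In SW 4 members fell, against 11.4% of all genes, in sw-cbf2 3 (10.5%), in sw-cbf23 4 (9.71%) and in sw-cbf123 3 (11%). In IT 5 fell, against 11.7%, in it8 4 (8.84%) and in it33 4 (9.31%). The 3 genes HSFA2, HSP90.1 and HSP70 fell in all 7 lines, as did 2.74% of 17275 genes at 1 FPKM or more in every one of these comparisons. HSP90.1 and HSP70 also fell between 24 h and 2 weeks in all 7 lines, as did 2.26% of 17126 genes. The median ratio over the 10 genes at 2 weeks was -0.67 in SW and -1.08 in IT.

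In the warm HSFC1, HSP90.1, HSP70 and HSP17.6A were higher in IT, it8 and it33 than in all 4 SW-background lines, and HSFA3 and HSP18.2 were lower. These are 4 and 2 of the 8 members at 1 FPKM or more in the warm, where 30.8% and 32.3% of all genes were separated in this way. With 8 members, such counts cannot be set apart from these shares. Between the unedited ecotypes 8 of the 10 genes could be called in the warm. Of these 4 were lower in SW than in IT (HSP101, HSP90.1, HSP70 and HSP17.6A), against 17.3% of all genes that could be called. HSP18.2 was higher, against 10.7%. These counts rest on the warm IT value, which is described further on. At 24 h 3 of 7 were lower in SW (HSFA2, HSP70 and HSP17.6A), against 15.5%, and 0 were higher (11.1%). At 2 weeks 0 were lower (13.5%) and 0 higher (9.23%), with only HSP101 at 1 FPKM or more in either ecotype. The mutants sw-cbf123 and it8 were close in the warm for HSP101, at 2.41 and 2.28 FPKM, and for HSFA2, at 2.63 and 2.31. They were further apart for HSP90.1 (5.70 and 14.1), HSP70 (5.29 and 8.12), HSP17.6A (0.261 and 1.70) and HSP18.2 (2.095 and 0.136). The same held for HSFA3 (1.61 and 0.908) and HSFC1 (0.350 and 0.763).

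Among the SW-background mutants no member was called against SW under any treatment, but few could be: 6 of the 10 in the warm and at 24 h in each mutant, and at 2 weeks 2 in sw-cbf2 and sw-cbf123 and 3 in sw-cbf23. For sw-cbf123 over SW the counts were 0 up and 0 down in the warm (2.08% and 2.24% of all genes), at 24 h (5.27% and 5.57%) and at 2 weeks (3.44% and 2.63%). For sw-cbf2 over SW the shares of all genes were 1.64% and 0.852% in the warm, 3.39% and 3.18% at 24 h and 2.5% and 1.62% at 2 weeks. For sw-cbf23 over SW they were 2.1% and 1.68%, 3.2% and 2.24%, and 3.42% and 1.93%. The largest ratio of sw-cbf123 among members at 1 FPKM or more was 0.87, for HSP18.2 at 2 weeks, where sw-cbf123 was at 1.92 FPKM and SW at 0.828. A ratio under the threshold in single pooled values does not show that the lines were alike.

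In the IT background the members called in it8 and it33 were lower than in IT in the warm and higher at 24 h. In the warm 4 members were lower in it8 than in IT (HSFA2 -1.09, HSP90.1 -1.22, HSP70 -1.03 and HSP17.6A -1.05), against 1.33% of all genes, and 0 were higher (0.848%). These ratios lie close to the threshold, and with a pseudocount of 1 FPKM the count was 1 and with quantile normalization 2. In it33 2 were lower (HSFA2 and HSP101, both -1.03), against 0.588%, and 0 were higher (0.665%). In 35s 3 were lower (HSP101 -1.19, HSP90.1 -1.87 and HSP17.6A -1.37), against 3.68%, and 0 were higher (1.77%). At 24 h 4 members were higher in it8 (HSFA2 1.25, HSP101 1.62, HSP90.1 1.83 and HSP70 1.21), against 0.807%, and 0 were lower (1.57%). In it33 2 were higher (HSP90.1 1.08 and HSP17.6A 1.05), against 0.616%, and 0 were lower (0.984%). At 2 weeks no member was called, but only 3 in it8 and 1 in it33 could be, with 0.733% of all genes higher in it8 and 0.906% lower, and 0.887% higher in it33 and 0.855% lower. These comparisons share the IT groups, and the ratio of it33 over it8 lay between -0.79 and 0.34 for every member. The 69 other heat shock genes listed below were seldom called here. In the warm 0 were higher and 1 lower in it8 than in IT, and 0 and 0 in it33, of 56 that could be called. At 24 h 2 were higher and 1 lower in it8, and 1 and 0 in it33, of 55. In warm 35s 1 was higher and 5 lower of 56.

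The warm IT group stood apart from warm it8, it33 and 35s for some of the members. HSFA2, HSP101, HSP90.1 and HSP17.6A were each at least 1.5 times as high in IT as in it8, it33 and 35s. These are 4 of the 7 members at 1 FPKM or more there, and HSFA3, HSFC1 and HSP70 did not meet this rule. It was met by 1.23% of 18603 genes. The rule has the shape of these members' own values, so its share does not measure how unusual they are. HSP90.1 was at 33.5 FPKM in IT against 14.1, 17.9 and 8.76. Of 56 genes of the list below at 1 FPKM or more there, 5 met the rule. Among these 5, Hsp70-2 was at 155 FPKM in warm IT and at 81.1, 98.2 and 52.7 in it8, it33 and 35s. With the warm level of it8 in place of that of IT, 3 members rose in IT at 24 h and 0 fell. With that of it33, 2 rose and 1 fell, and with that of 35s, 1 rose and 0 fell. Whether the 2 samples pooled for warm IT agreed was not tested, since the table holds only their joint value.

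**Figure D3:**
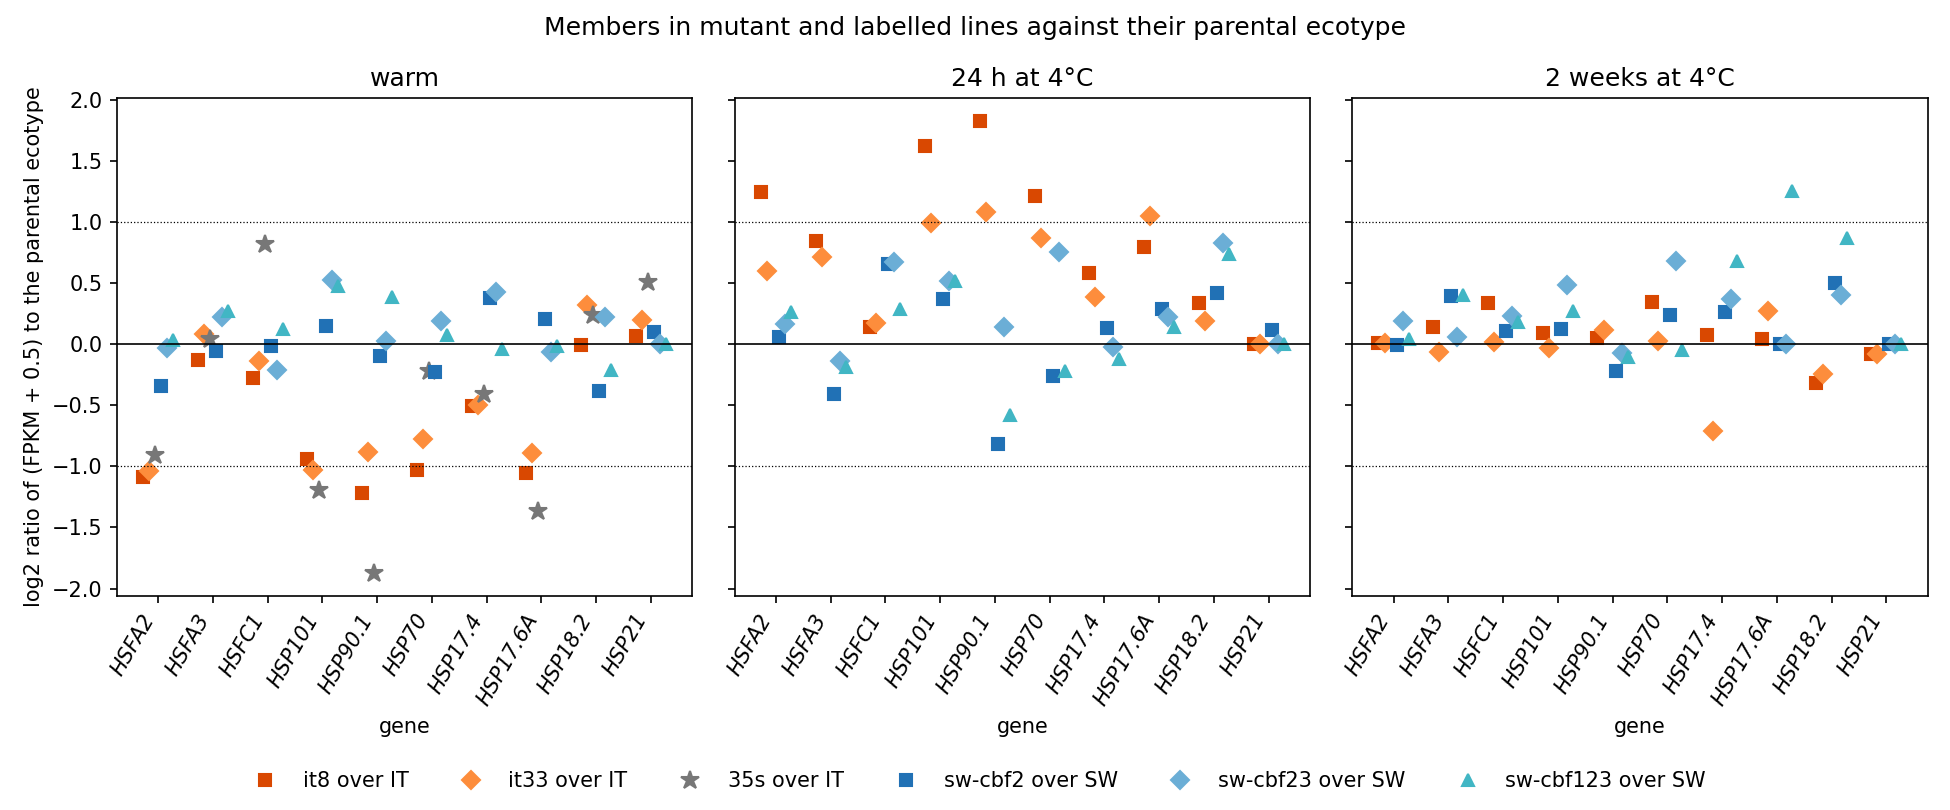
Log2 ratio of (FPKM + 0.5) of each mutant or labelled line to the unedited ecotype of its background, for the 10 genes, in the warm, after 24 h and after 2 weeks at 4°C, with 1 pooled value per point and dotted lines at 2-fold. The it8 and it33 points for HSFA2, HSP101, HSP90.1, HSP70 and HSP17.6A lie below 0 in the warm and above 0 at 24 h, from -1.22 to 1.83 for HSP90.1 in it8.

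The other genes of the heat shock network were followed in a list of 69 HSF, HSP and co-chaperone genes found in the table. At 24 h in SW 12 rose and 7 fell of the 54 that could be called, where 14.6% of all genes rose and 14.7% fell. In IT 6 rose and 8 fell of 56 (9.21% and 10.9% of all genes), in it8 21 rose and 3 fell of 56 (11.4% and 10.7%), and in it33 17 rose and 5 fell of 56 (11.4% and 11.3%). The list holds 17 HSF genes, of which 13 could be called in SW and 12 in IT, it8 and it33. Of these 5 rose in SW, 2 in IT, 6 in it8 and 4 in it33, and 0 fell. Of its 15 small HSP genes 8 could be called in SW and 10 in IT, it8 and it33. Of these 0 rose and 5 fell in SW and in IT, 3 rose and 3 fell in it8, and 3 rose and 5 fell in it33. Of 12 other HSP70 genes 9 could be called in SW and 10 in IT, it8 and it33, and 2 rose in SW, 0 in IT, 2 in it8 and 2 in it33. All 6 other HSP90 genes could be called, and 1, 0, 3 and 3 rose. No difference between these gene groups was tested.

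The largest rises at 24 h in SW were those of DREB2A, a transcription factor of drought and heat, at 0.782 and 31.0 FPKM, Hsp70-2, at 9.97 and 86.1 FPKM, and GolS1, the galactinol synthase, at 37.4 and 244 FPKM. The largest falls in SW were AT2G19310, annotated as an HSP20-like chaperone, from 73.4 to 15.5 FPKM, MBF1C, a transcriptional coactivator of heat tolerance, from 22.5 to 6.07, and AT5G37670, also HSP20-like, from 3.52 to 0.716. In IT they were Hop3, a co-chaperone linking HSP70 and HSP90, from 5.16 to 0.556 FPKM, AT5G51440, HSP20-like, from 5.76 to 1.03, and AT2G19310, from 103 to 29.8. In it8 the largest rises were DREB2A, from 1.15 to 44.3 FPKM, Fes1A, which protects HSP70 from degradation, from 23.9 to 191, and HSFA8, from 25.7 to 149. Of the 52 genes of the list that could be called in all 7 lines, DREB2A, Fes1A, HSFA8 and HSFA1E rose in every line and AT2G19310 fell. Of 17285 genes 4.11% rose and 4.10% fell in all 7.

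After 2 weeks more genes of the list fell than rose. In SW 3 rose and 9 fell of the 54 that could be called, where 9.39% of all genes rose and 11.4% fell. In IT 4 rose and 23 fell of 56, where 7.89% rose and 11.7% fell, and this count rests on the warm IT value described above. In it8 5 rose and 15 fell of 56 (8.08% and 8.84% of all genes), and in it33 4 rose and 18 fell of 56 (7.56% and 9.31%). Of the 12 HSP70 genes 10 could be called in each of these lines, and 5 fell in IT, 3 in it8, 2 in it33 and 1 in SW. All 6 HSP90 genes could be called, and 4, 3, 4 and 0 fell. The largest fall in IT was that of Hsp70-2, from 155 to 4.59 FPKM. Of the 53 genes of the list that could be called in all 7 lines, 5 fell in every line, as did 2.74% of 17275 genes. They were MBF1C, Hop3, AT2G19310, AT5G51440 and AT5G48570, which encodes the immunophilin ROF2. HSFA1E, one of the HSFs that start the heat shock response, went the other way and rose in all 7 lines. SW went from 1.09 to 8.73 FPKM for HSFA1E, and IT from 1.14 to 7.43. DREB2A also rose in all 7, as did 2.41% of 17275 genes.

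**Figure D4:**
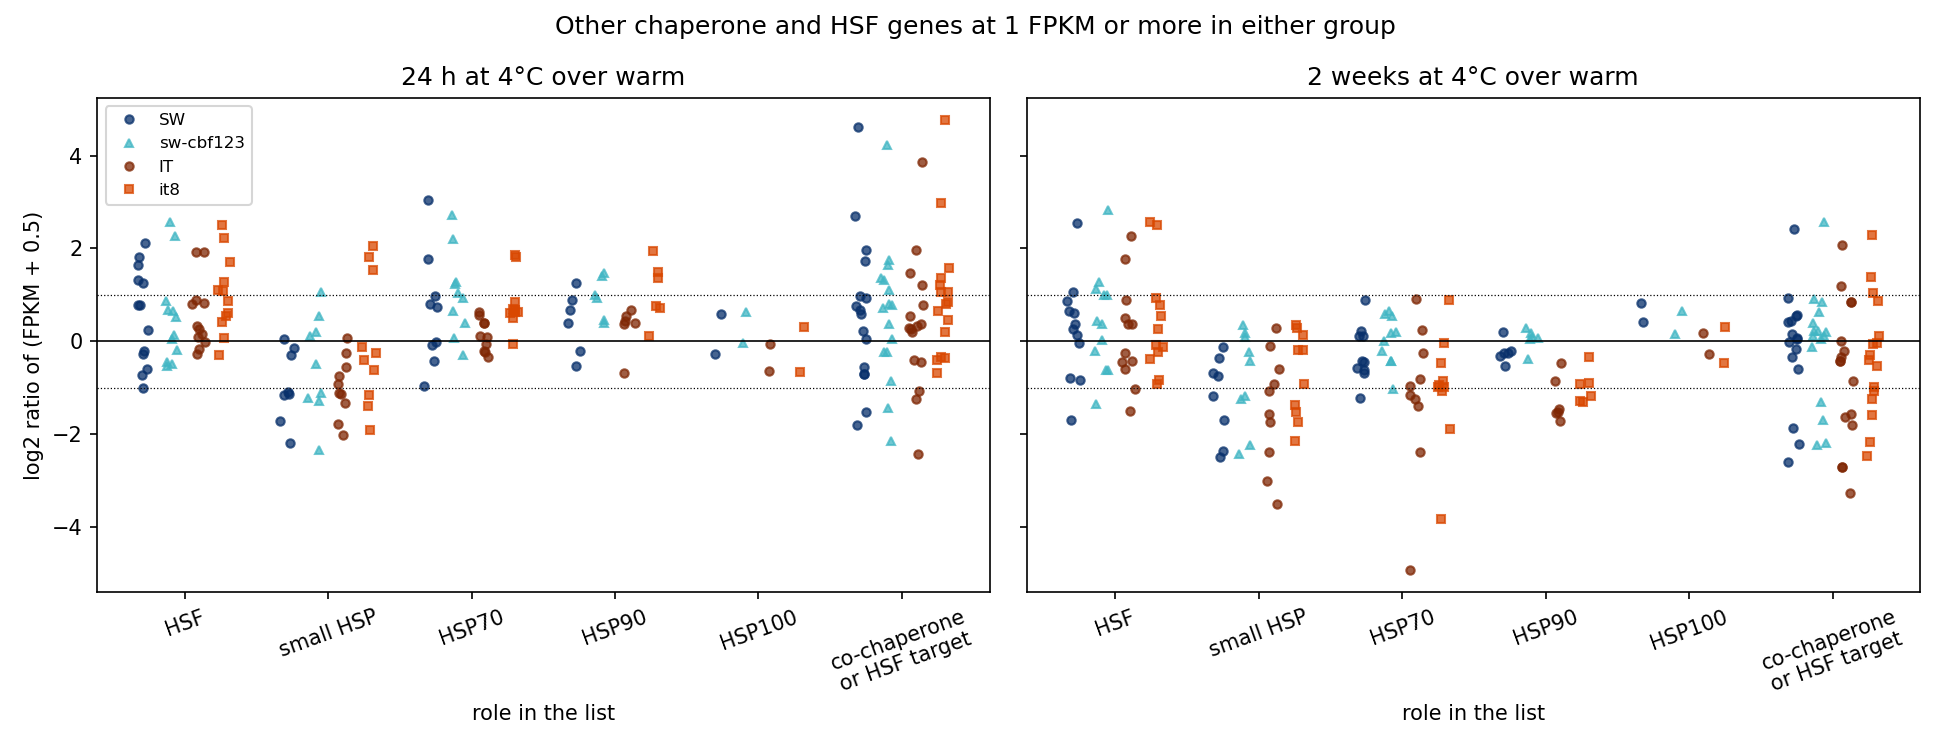
Log2 ratio of (FPKM + 0.5) after 24 h (left) and 2 weeks (right) over warm for each gene of the 69-gene list that reached 1 FPKM in either group, by role, in SW, sw-cbf123, IT and it8, with dotted lines at 2-fold. At 2 weeks 4 of 6 HSP90 points of IT and 0 of SW lie past 2-fold, and Hsp70-2 is the lowest point, at -4.93 in IT.

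The genes whose profile over the 22 groups was most like the mean of the 7 HSP genes were not chaperones. On log2(FPKM + 0.5), Pearson's r was 0.96 for SR45a (AT1G07350), a splicing factor, 0.96 for NUDT7, a Nudix hydrolase, 0.95 for XBAT34, 0.95 for AT3G07090, annotated as a putative thiol peptidase, and 0.94 for the calcium pump gene ACA1. For HSFC1 they were RGF6, a peptide growth factor (0.92), GPX2, a glutathione peroxidase (0.91), AT1G26270 (0.91), AT3G46950 (0.91) and AT3G02650 (0.90). These values describe 22 points that share lines and treatments. Among the members themselves HSP70 and HSP90.1 were the closest pair (0.94), and HSP18.2 had negative values with HSP17.6A (-0.46) and HSFC1 (-0.51).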

How the data were processed

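RNA was sequenced on an Illumina Genome Analyzer II from 44 samples, 2 in each of 22 groups. The authors mapped reads to TAIR10 with TopHat (2.1.0) and computed FPKM with Cufflinks and Cuffdiff (Cufflinks 2.1.1 in the submitters' processing notes). The deposited table holds 1 FPKM per gene and group, pooled over the 2 samples, with no counts, so the depth per sample and the precision of a value are unknown. Groups came from the labels, and columns were matched to groups by name.

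Ratios were log2((FPKM + 0.5)/(FPKM + 0.5)) over all 33557 genes, called at 2-fold where either group reached 1 FPKM (Python, with NumPy and pandas), and no test was possible. The alternatives were pseudocounts of 0.1 and 1, no filter, a filter of 5 FPKM, quantile normalization and median-of-ratios scaling (factors 0.949 to 1.07), and other warm groups as the reference, chosen after seeing the data. The members, the 69-gene list and the rule for named genes (all members, and from the list the 3 largest rises and falls in a comparison) were chosen with earlier results of these data known; genes of the list called in all 7 lines are named in addition. Gene symbols and promoter sequences came from RefSeq (TAIR10.1), the latter by script from the plus or minus strand of the gene. HSP101 and HSP90.1 have gene models marked partial and their promoters were not used here.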

Additional observations from a re-analysis of the deposited data

Results flagged for a closer look

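For HSFA2 and HSP18.2 the ratio of 24 h over warm was below 0 in every SW-background line and above 0 in every IT-background line. The ratio passed the rule for a call in 6 of 7 lines for HSFA2 (not IT) and in SW alone for HSP18.2. For HSFA2 the log2 ratio was -1.66 for SW, -1.26 for sw-cbf2, -1.47 for sw-cbf23 and -1.43 for sw-cbf123, against 0.50 in IT, 2.84 in it8 and 2.14 in it33. For HSP18.2 it was -1.25 for SW, -0.45 for sw-cbf2, -0.65 for sw-cbf23 and -0.30 for sw-cbf123, against 0.24 in IT, 0.58 in it8 and 0.11 in it33, and it stayed under 0.5 FPKM in these 3 lines. Neither difference was tested, since each group has 1 pooled value. Of 20138 genes, 2.24% had ratios below 0 in all 4 SW-background lines and above 0 in all 3 IT-background lines.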

How the results depend on the processing

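No paired analysis was possible because each group has 1 pooled column, and leaving out replicates was not run for the same reason. Over 460 ratios of a member in a comparison and 6 alternatives, 2656 of 2760 outcomes (called or not called) were as reported. Among them, 76 calls were lost, 28 were gained and 0 reversed. Most of the 2760 were ratios called in neither setting. The unchanged share therefore says little about how firm the calls are. The 5 FPKM filter, which leaves fewer genes that can be called, gave 49 of the lost calls. With it 0 members fell in SW at 24 h and 0 at 2 weeks, 3 fell in IT at 2 weeks, 0 were higher and 2 lower in warm SW than in IT, and 1 was lower in 35s. With a pseudocount of 0.1, 2 rose in SW at 24 h, 5 were lower in SW than in IT at 24 h, 1 was higher in sw-cbf123 than in SW at 2 weeks and 1 was higher in 35s than in IT. With a pseudocount of 1, 0 rose and 1 fell in SW at 24 h, and 1 was lower in warm it8 than in IT. Without a filter 2 fell in IT at 24 h, 1 was higher in sw-cbf123 at 2 weeks and 1 was lower in SW than in IT at 2 weeks. Quantile normalization left 2 members lower in warm it8 than in IT, as HSP70 and HSP17.6A crossed the threshold. With the warm level of sw-cbf123 as the reference, 0 rose in SW at 24 h. With that of it8, it33 or 35s, 3, 2 or 1 rose in IT at 24 h, and 0, 1 or 0 fell. Apart from the effect of fewer genes under the 5 FPKM filter, the cause was not tested. Many members lie near 1 FPKM, and the depth behind these values is unknown.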

Other observations

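The profile of HSFA2 over the 22 groups was compared with all genes other than the 10 members after its values were seen. Among the 5 most alike was EDS16 (Pearson's r 0.94), which encodes the isochorismate synthase of salicylic acid synthesis. EDS16 was at 38.0 FPKM in warm SW, 19.5 after 24 h and 10.6 after 2 weeks. In IT it was at 144, 138 and 10.06 FPKM, in it8 at 80.2, 209 and 11.5, and in it33 at 96.2, 243 and 11.9. Like HSFA2, it was higher in warm IT than in it8, it33 and 35s (53.6 FPKM) and lower in IT than in it8 and it33 at 24 h. EDS16 was picked for its likeness to HSFA2 over these same values, so the shared features are no separate support for a link. A link between the 2 genes was not tested. The 2 disease resistance genes AT1G72890 (0.96) and AT1G72900 (0.95), annotated with TIR domains, were also among the 5, as were AT1G61260 (0.95) and AT1G03370 (0.95). EDS16 had the lowest r of the 5.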
